A study of Mus musculus with 2 samples.

Results

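Some stretches of the mouse neutrophil genome carried many open regions close together, away from gene starts. In the authors' list of peaks that were reproducible between both replicates, overlapping peaks were merged into 24882 open regions. Of these, 13238 (53.2%) were distal, with a summit more than 1 kb from every annotated transcription start site. Distal regions whose neighbouring summits lay at most 12.5 kb apart were joined into chains, and the 94 chains with at least 5 regions are described here as dense chains. They held 541 regions, or 4.09% of the distal regions and 2.17% of all open regions. The other distal regions were 5380 in 2289 chains of 2 to 4 and 7317 single regions. The members were chosen by measured values, namely which peaks the pooled list called and where their summits lay. The number and spacing of the regions are therefore given as a description.

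The study used ATAC-seq, in which a transposase cuts accessible DNA, on blood neutrophils of the C57BL/6J strain. The donors were adults, 5 to 6 weeks old. There was 1 group of 2 biological replicates, each from 50000 cells, with no genetic change, treatment or second cell type. The labels name no sorting step and do not say whether the replicates were separate mice, so differences between them may be technical. Peak lists without read totals were used, so the depth of the libraries is unknown.

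Open regions away from promoters are often enhancers, stretches of DNA where transcription factors bind and act on a gene that may lie far away. Clusters of enhancers near one another, called super-enhancers or stretch enhancers, are known mainly from genes that define a cell's identity, and are usually ranked by histone acetylation or Mediator binding, neither of which was measured here. In neutrophils and their precursors, PU.1, the C/EBP family, RUNX1 and AP-1 factors are well-known regulators that bind such elements.

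The strongest region of 4 of the 5 chains with the most regions is given here as sequence. These regions were picked by their signal value, so they need not resemble the weaker members. The windows are 101 bp of the GRCm38 forward strand centred on the summit. Capitals mark every match, on either strand, to 5 short strings: GGAAGT (the core bound by PU.1 and other ETS factors), TTNCNNAA (C/EBP), TGANTCA (AP-1), TGTGGTT (RUNX) and CCNCNCCC (KLF and SP factors).
Dusp6 and Poc1b chain, chr10:99204677-99204777: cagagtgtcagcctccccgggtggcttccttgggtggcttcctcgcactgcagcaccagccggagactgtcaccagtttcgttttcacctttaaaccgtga
Ptma chain, chr1:86479221-86479321: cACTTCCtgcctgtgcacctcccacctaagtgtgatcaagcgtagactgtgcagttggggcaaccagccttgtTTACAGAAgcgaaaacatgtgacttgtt
Pik3ap1 chain, chr19:41345111-41345211: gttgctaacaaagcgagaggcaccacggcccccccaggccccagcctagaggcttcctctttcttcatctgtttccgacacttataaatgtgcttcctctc
Nanos3 chain, chr8:84192142-84192242: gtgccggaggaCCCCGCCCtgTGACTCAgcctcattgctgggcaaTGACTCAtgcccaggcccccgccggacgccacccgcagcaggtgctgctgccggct

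A match is a description of letters and not evidence of binding. The window of the Ptma chain held 1 GGAAGT match and 1 C/EBP match. The Nanos3 window held 2 AP-1 matches and 1 KLF-SP match, and the windows of the Dusp6 and Poc1b chain and of the Pik3ap1 chain held none of the 5 strings. The same windows are shown for the 7 chains at genes of neutrophil function described below.
Ncf4 chain, chr15:78258364-78258464: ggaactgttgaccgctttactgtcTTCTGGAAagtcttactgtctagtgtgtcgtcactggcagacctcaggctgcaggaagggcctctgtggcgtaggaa
Syk chain, chr13:52636310-52636410: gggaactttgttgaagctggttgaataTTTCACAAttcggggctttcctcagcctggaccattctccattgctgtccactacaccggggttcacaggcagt
Mcl1 chain, chr3:95645469-95645569: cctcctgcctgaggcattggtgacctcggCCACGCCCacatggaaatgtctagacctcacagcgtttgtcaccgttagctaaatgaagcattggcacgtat
Alox5ap chain, chr5:149274952-149275052: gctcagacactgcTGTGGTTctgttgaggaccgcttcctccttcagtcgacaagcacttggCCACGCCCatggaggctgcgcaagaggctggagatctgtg
Tnf and Lta chain, chr17:35210307-35210407: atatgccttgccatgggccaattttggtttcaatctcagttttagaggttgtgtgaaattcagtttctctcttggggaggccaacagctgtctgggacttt
Plcg2 chain, chr8:117481975-117482075: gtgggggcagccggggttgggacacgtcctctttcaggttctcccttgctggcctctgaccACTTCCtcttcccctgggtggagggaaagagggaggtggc
Gnai2 chain, chr9:107612763-107612863: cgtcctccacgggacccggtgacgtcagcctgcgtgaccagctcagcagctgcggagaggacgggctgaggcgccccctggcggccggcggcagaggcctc

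The cell type was checked against lists of marker genes before the chains were described, and markers of B cells were open as widely as those of neutrophils. A gene counted as open where a region of the list lay within 1 kb of any of its start sites. Of 40 mature neutrophil genes, 30 were open in replicate 1 and 20 in replicate 2. Of 28 B cell genes, 24 were open in replicate 1 and 16 in replicate 2 (85.7% and 57.1%). The open B cell promoters included those of Cd79a, a signalling chain of the B cell receptor (signal value 12.7 in replicate 1 and 11.3 in replicate 2), Ms4a1, which encodes CD20 (13.04 and 11.4), and Pax5, the B lineage factor (11.2 and 14.01). Blk, Fcmr, Cd83 and Vpreb3 had no promoter region in either. T cell genes were open at 8 and 4 of 26, natural killer cell genes at 4 and 2 of 18, and monocyte and macrophage genes at 6 and 3 of 24. No hepatocyte gene of 17 was open in either replicate. Over all protein-coding genes the shares were 47.1% in replicate 1 and 40.3% in replicate 2. In a bulk library, a region open in few cells and one weakly open in all cells cannot be told apart, and how far cells other than neutrophils contributed to the chains was not tested.

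**Figure D1:**
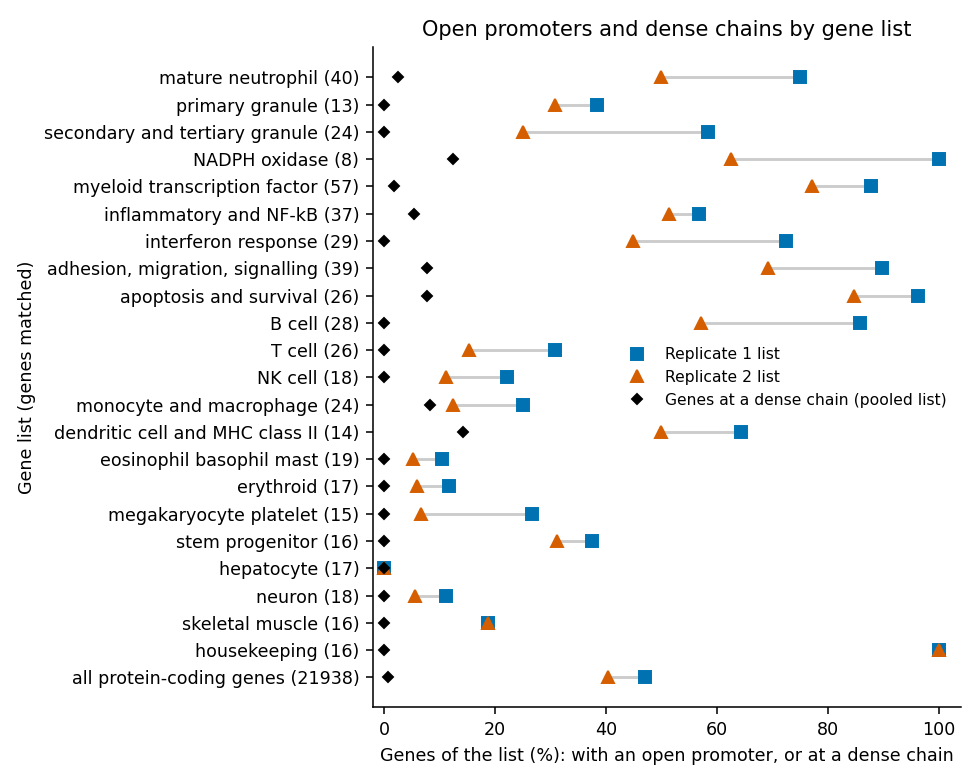
Share of each gene list (percent, horizontal axis) with an open promoter in the thresholded list of replicate 1 (squares) and replicate 2 (triangles), and share of its genes at a dense chain in the pooled list (diamonds). The B cell list lies at 85.7% and 57.1%, to the right of the mature neutrophil list in both replicates, and neither has more than 1 gene at a dense chain.

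Most dense chains had the minimum of 5 regions. There were 56 chains of 5 regions, 18 of 6, 12 of 7, 3 of 8 and 5 of 9, and 161 chains of 4 lay just outside the rule. From the first to the last summit the chains spanned a median of 24.7 kb, from 7.91 kb at Alox5ap to 57.8 kb at Acod1. Summits inside a chain were a median of 5.35 kb apart (quartiles 2.15 and 7.91 kb). The widest gap inside a chain was 12464 bp, and the narrowest gap between a chain and the next distal region was 12514 bp. Together the chains spanned 2.44 Mb, or 0.0896% of the assembled chromosomes, and their open regions covered 9.25% of that span. Chromosomes 9, 11 and 17 had the most chains, with 13, 11 and 10, and chromosomes 18, X and Y had none.

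**Figure D2:**
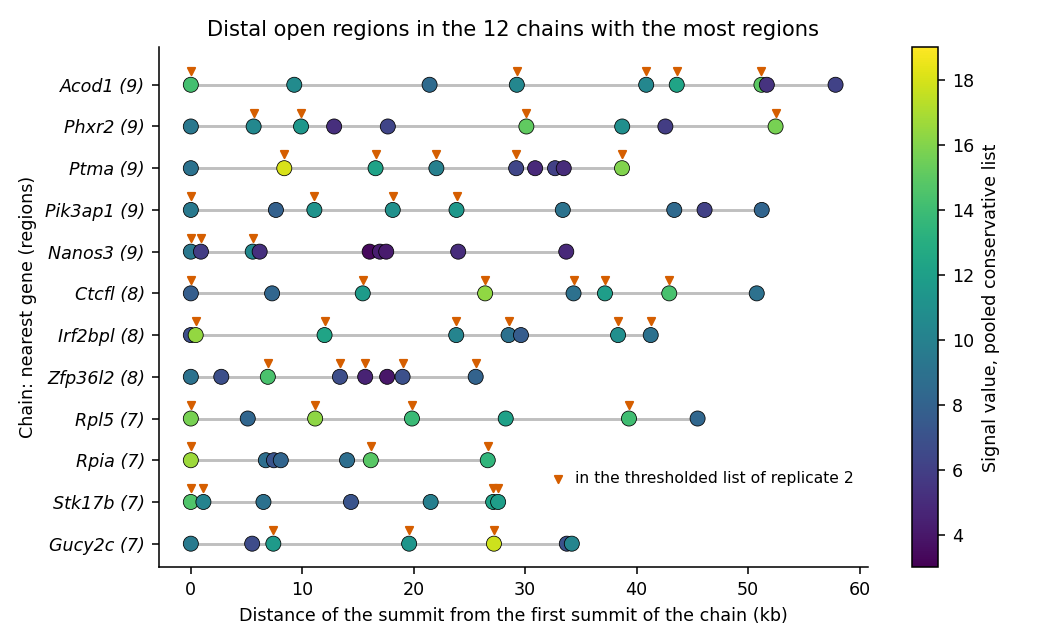
The 12 chains with the most regions, ties at 7 regions broken by summed signal value, each named by the gene whose start site is nearest to most of its regions, with the number of regions in brackets. Points are summits at their distance in kb from the first summit of the chain, coloured by signal value in the pooled conservative list, and triangles mark regions also in the thresholded list of replicate 2. The Acod1 chain reaches 57.8 kb, and single regions above 15 sit beside regions below 7 in the same chain, as at Ptma.

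The 94 chains took 151 of 21938 protein-coding genes (0.688%), counting each gene whose body a chain overlapped or whose start site was nearest to a member. Of these, 74 were overlapped and 136 were a nearest gene. In 56 chains every member had the same nearest gene, and 46 chains took a single gene. Where a chain is named by its gene, that is a statement of position, since contacts between regions and genes were not measured.

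The chain with the widest span, and 1 of the 5 with 9 regions, lay at Acod1, the gene of the enzyme that makes itaconate in activated myeloid cells (chr14:103007699-103065934). Of its 9 regions, 5 were nearest to Acod1, and 2 of those were inside its body. The region nearest to Acod1, 1860 bp inside the gene, scored 10.8 and 7.93 in replicates 1 and 2, and the next, at 4600 bp, scored 11.5 and 12.1. The other 3 regions nearest to Acod1 were upstream of it, the nearest with 9.59 and 9.14 in replicates 1 and 2 and the farthest with 11.5 and 6.10. Of the 9 regions, 8 were in the replicate 1 list and 5 in the replicate 2 list. The Acod1 promoter itself was weakly open, with 5.05 in the pooled list and no region in either replicate list.

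Dusp6, which encodes a phosphatase that switches off the kinase ERK, stood between 2 dense chains with 15 regions in all. The first (chr10:99152161-99204886, 9 regions) overlapped Poc1b, a centriole gene, with 8 intronic members and 7 nearest to Phxr2. Its last and strongest region, 58.5 kb upstream of Dusp6, had values of 14.5 in replicate 1 and 13.1 in replicate 2. The second chain (chr10:99425247-99467860, 6 regions) lay 162.2 to 204.5 kb beyond the Dusp6 start on the other side. It held the strongest region of the pair, with 18.3 in replicate 1 and 15.99 in replicate 2, and ended in regions of 4.48 and 6.19 in replicate 1. Both replicates gave their highest value to the same region of each chain. The Dusp6 promoter was open in both replicates (8.9985 and 11.2).

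At Ptma, the prothymosin alpha gene, 8 intergenic regions lay 17.2 to 47.5 kb upstream of the start site, and the ninth of the chain was nearest to Tex44 (chr1:86470750-86509865). A separate chain of 5 at Tex44 lay 28.4 kb away. The 2 strongest Ptma regions had 16.7 and 14.3 in replicate 1 and 14.6 and 14.9 in replicate 2. The 6 regions between them included 4 from 4.83 to 6.34 in the pooled list, 1 of which was in the replicate 2 list and not in that of replicate 1. This was 1 of only 2 members of all 541 with that pattern.

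Pik3ap1 encodes BCAP, an adaptor that links B cell and Toll-like receptors to PI3 kinase. All 9 regions of its chain (chr19:41321163-41372718) were in introns, and 8 were nearest to Pik3ap1 and inside it, 12.6 to 56.1 kb from its start. The values along the chain ran from 6.06 to 11.5 in the pooled list, from 5.69 to 11.0 in replicate 1 and from 5.39 to 10.2 in replicate 2. The ninth, nearest to Tm9sf3, was in both replicate lists. The Nanos3 and Zswim4 chain (chr8:84186505-84220502) was weak, with a median of 5.02 over its 9 regions and a highest value of 10.5, and Nanos3, a germ cell gene, had no open promoter. Of its regions, 2 were in exons.

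The rest of the 12 chains with the most regions fell at genes of varied function. There were 12 chains of 7 in all, of which the 4 with the highest summed signal value are included. Zfp36l2, which encodes a protein that promotes decay of AU-rich mRNAs, had 8 intergenic regions 61.6 to 87.2 kb beyond its start (chr17:84100618-84126487). All 8 were in the replicate 1 list and 5 in the replicate 2 list, and the strongest had 13.2 and 13.6. Chains of 8 also lay by Irf2bpl (median 9.61), and between Ctcfl, a testis paralog of CTCF, and Rbm38, an RNA-binding protein gene (median 10.3). Chains of 7 lay at Fam69a and the ribosomal protein gene Rpl5 (median 13.9, the highest of these 12), at Rpia of the pentose phosphate pathway and the stress kinase gene Eif2ak3 (8.77), at Stk17b and Hecw2 (10.2), and at Gucy2c and Plbd1 (10.3). Neither Gucy2c, an intestinal guanylate cyclase gene, nor Plbd1 had an open promoter, whereas Rpl5, Rpia and Stk17b had promoter regions of 18.6, 15.5 and 12.9 in replicate 1 and 20.7, 17.3 and 13.35 in replicate 2.

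The 5 chains with the most regions per kb were at Alox5ap (6.32 regions per 10 kb), Sfi1 (6.05), Kdm6b (4.88), Bicra (4.502) and Amigo2 (4.23). Applied to the thresholded list of replicate 1 alone, the rule rebuilt those at Kdm6b and Bicra and not those at Alox5ap, Sfi1 and Amigo2, and the list of replicate 2 rebuilt none of the 5. The Sfi1 chain (chr11:3123528-3133918) had the lowest median of all 94 chains, at 2.64. Its values ran from 2.07 to 3.27 in the pooled list, from 2.15 to 2.88 in replicate 1 and from 1.93 to 3.79 in replicate 2. The median of the authors' −log10 p was nevertheless 33.8 in this chain, against 49.4 over all dense regions, and 1 of its regions was 1610 bp wide. Why its signal values were so low was not tested. Kdm6b, which encodes a demethylase of histone H3 lysine 27, had 5 regions within 5.31 kb of its start, 4 of them in both replicate lists. The Amigo2 chain lay 211.0 to 222.8 kb from that gene.

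Among 22 lists of genes of neutrophil function and of cell lineages, 14 of 502 listed genes were at a dense chain (2.79%, against the 0.688% of all protein-coding genes). The lists were chosen with results of these data known, and the difference was not tested. Granule genes had none, with 0 of 13 primary and 0 of 24 secondary and tertiary granule genes. The mature neutrophil list had 1 of 40, the NADPH oxidase list 1 of 8, the myeloid transcription factor list 1 of 57, the inflammatory and NF-kB list 2 of 37, the adhesion and signalling list 3 of 39 and the apoptosis and survival list 2 of 26. The interferon response list had 0 of 29.

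Alox5ap, which encodes the protein that presents arachidonic acid to 5-lipoxygenase for leukotriene synthesis, had the most compact chain (chr5:149266694-149275133). All 5 regions were in its introns, 2.33 to 10.2 kb from the start. Replicate 1 gave values from 5.79 to 9.18 and replicate 2 from 5.26 to 8.96, with 5 regions in the replicate 1 list and 2 in that of replicate 2. No other peak list rebuilt this chain: none came from either thresholded or less strict replicate list, nor from the pooled optimal list, and it was the only chain of the 94 with that pattern. Some neighbouring members of this chain overlapped the same replicate peak and so share 1 value.

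Ncf4 encodes p40phox, a cytosolic subunit of the oxidase that makes superoxide. Its 6 regions (chr15:78239562-78268174) ran from 5.11 kb upstream through the gene to 23.3 kb beyond its start. The strongest, 13.6 kb inside the gene, had 12.5 in replicate 1 and 12.04 in replicate 2, and the upstream region had 10.2 and 9.65. The weakest (5.50 in replicate 1) had no peak in either list of replicate 2. Rac2, the GTPase of the same enzyme, had its start site within 50 kb of a dense chain.

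Signalling genes downstream of phagocyte receptors had 3 chains. Syk, the kinase recruited by Fc receptors and integrins, had 5 members in its body 32.1 to 53.2 kb from the start (chr13:52615091-52636657), with 1 strong region (12.9 and 10.1 in replicates 1 and 2) and 2 with no peak in replicate 2. Plcg2, the phospholipase that acts after Syk, had 5 intergenic regions 16.3 to 32.8 kb upstream (chr8:117465343-117482158), the strongest of which had 12.01 and 15.3. Gnai2, which encodes the inhibitory G protein subunit used by chemokine receptors, had 6 regions with the neighbour Sema3b (chr9:107612658-107644909), of which 6 were in the replicate 1 list and 5 in the replicate 2 list. The promoters of all 3 genes were open in replicate 1 (7.71, 7.03 and 12.3), and that of Plcg2 was not in the replicate 2 list.

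Mcl1, the survival factor on which neutrophils depend, had a chain of 5 shared with Ensa (chr3:95632990-95653959). A single region 13.3 kb upstream of Mcl1 stood out, with 17.5 in replicate 1 and 9.11 in replicate 2, while the other 4 ranged from 4.99 to 7.49 and from 3.52 to 6.42. The replicates differed more at this region than at any other member of the chain. Btg2, an antiproliferative gene, had 3 of the 5 regions of a chain beyond its start, the others being nearest to Fmod.

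Tnf and Acod1 were the inflammatory genes at a chain. The Tnf chain (chr17:35200463-35232295) also took Lta, Nfkbil1, Gm16181 and Atp6v1g2, and its 5 regions ranged from 4.64 to 11.3 in the pooled list. The region inside Tnf, in an intron 1363 bp from its start, had 8.23 in replicate 1 and 7.55 in replicate 2, and no other member was nearest to Tnf. The Tnf promoter had no region in any of the 3 lists. Rara, the retinoic acid receptor gene of the myeloid factor list, was nearest to 5 of 7 regions of its chain (chr11:98918222-98972561), with values of 4.84 to 11.0 in replicate 1 and 5.26 to 8.01 in replicate 2.

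Of the lists of other cell types, 2 had genes at a dense chain, with 2 of 14 dendritic cell and MHC class II genes (14.3%, the highest share of the 22 lists) and 2 of 24 monocyte and macrophage genes (8.33%). The monocyte and macrophage genes were Adgre1, which encodes the macrophage antigen F4/80 (6 regions, 11.5 and 8.67 at the strongest), and Nr4a1, a nuclear receptor gene of patrolling monocytes and of activated cells (6 regions, 15.3 and 16.2). Of the 6 regions of the Nr4a1 chain, 4 were nearest to Nr4a1 and the others to Grasp. The thresholded list of replicate 1 held 3 of the 6 and that of replicate 2 held 2. The MHC class II genes were H2-Aa and H2-Eb1, which encode chains of the class II molecules of B cells, dendritic cells and macrophages, in 1 chain of 5 (chr17:34291626-34313776, 5.56 to 8.77 in replicate 1 and 3.82 to 8.52 in replicate 2). The B cell, T cell, natural killer cell, eosinophil and mast cell, erythroid, megakaryocyte, stem cell, hepatocyte, neuron, muscle and housekeeping lists had none, with 0 of 28 B cell and 0 of 26 T cell genes.

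Genes known from B cells were nevertheless next to some chains, and these were chosen after their values were seen. Cxcr5, the chemokine receptor that guides B cells to follicles, was nearest to the 5 regions of 1 chain and to 1 of a neighbouring chain at Bcl9l, 29.5 kb apart, and its promoter was open in both replicates (11.9 and 8.79). Tnfrsf13b, which encodes the receptor TACI, had 5 upstream regions, 3 of them in the replicate 1 list and 0 in that of replicate 2, and a promoter of 13.5 in replicate 1 with none in replicate 2. A chain of 5 (chr12:113216011-113228682) lay 26.1 kb from Igha, the constant region gene of immunoglobulin A, with Tmem121 at 26.5 kb on its other side. The interval downstream of Igha is known for the 3′ regulatory region of the immunoglobulin heavy chain locus. Its strongest region had 9.24 in replicate 1 and 8.72 in replicate 2, and the other 4 ranged from 5.31 to 5.69 in replicate 1. Mefv, the pyrin gene of granulocytes and monocytes, had the strongest single member of all chains, with 20.6 in replicate 1 and 17.3 in replicate 2.

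Most genes at the chains had an open promoter in the pooled list. This held for 109 of 151 (72.2%, 95% Wilson interval 64.6 to 78.7), against 46.8% of all protein-coding genes. The 2 shares are not independent of how the genes were chosen. Any part of a region within 1 kb of a start site counted, so a chain member could itself count as the promoter region. At Rftn1 the promoter and the strongest member had the same value, 10.4. Genes nearest to other distal regions were not set beside these, and the difference was not tested. The Wilson intervals cover counting error alone. The gene nearest to most members had an open promoter in 71 of the 94 chains, and at least 1 gene did in 81. In 27 chains 41 promoter regions lay inside the span, and the other 67 chains had none. Asb2, Akna, Tbc1d2b and Kdm6b, each nearest to most members of its chain, were among the genes with no promoter region in any of the 3 lists. These 4 were picked after their values were seen.

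The members were found more often in replicate 1 than in replicate 2. In the thresholded list of replicate 1, 474 of 541 overlapped a region (87.6%, 84.6 to 90.1), against 89.3% of all distal regions. In that of replicate 2, 239 did (44.2%, 40.0 to 48.4), against 41.2% of all distal regions and 38.2% of single regions (37.1 to 39.3). Both lists held 237 members, replicate 1 alone 237, replicate 2 alone 2 and neither list 65. In the less strict lists of the replicates, 538 and 498 members had a peak. All members were in the replicate 1 list in 45 chains and in the replicate 2 list in 1, the chain at Asb2, and 7 chains had no member in the replicate 2 list.

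**Figure D3:**
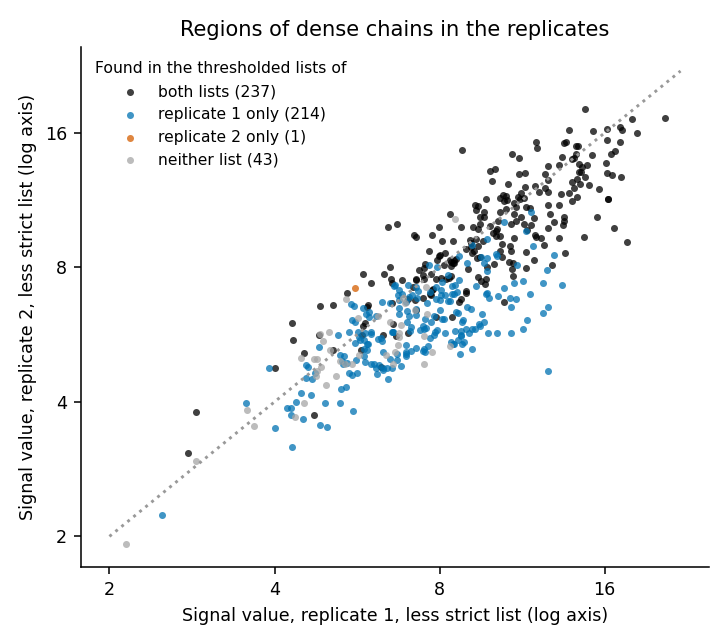
Signal value of the members in the less strict list of replicate 1 (horizontal, log axis) and replicate 2 (vertical, log axis), for the 495 with a peak in both; the dotted line marks equal values. Members in both thresholded lists (black) lie at the upper right, those in the replicate 1 list alone (blue) lie mostly below the line, and orange and grey mark members in the replicate 2 list alone and in neither.

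When the rule was applied to each replicate alone, fewer chains came back. The thresholded list of replicate 1 gave 145 chains with 833 regions, which overlapped 67 of the 94. That of replicate 2 gave 8 chains with 41 regions, which overlapped 7. The lists differed in length, with 15565 distal regions in replicate 1 and 5521 in replicate 2. Of these, 5.35% and 0.743% were in the rebuilt chains. How far the length of a list set the number of chains rebuilt was not tested. All 7 were also among the 67, and 27 chains overlapped none from either replicate. Among the 7 were the chains at Ptma, Ctcfl, Irf2bpl, Zfp36l2, Smad3, Tmigd3 and Asb2. The 27 included the chains described above at Stk17b, Syk, Mcl1, Tnf, Nr4a1 and Tnfrsf13b and the chain near Igha. They also included those at Alox5ap, Sfi1 and Amigo2. The Tnf chain was not rebuilt from the pooled optimal list either. With the less strict lists 91 and 77 chains came back. Those lists were longer, with 30325 and 16203 distal regions, and gave 831 and 190 chains in all. The strongest member of a chain was in the replicate 1 list in 94 of 94 chains and in the replicate 2 list in 75. In 64 chains both replicates gave their highest value to the same member. Across the 495 members with a peak in both less strict lists, the Spearman rho of the signal values was 0.826, a correlation across regions of 2 libraries.

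Regions in dense chains had lower signal values than single regions. The signal value is the authors' score for a peak, which the sources used here do not define. Its median was 8.23 in dense chains (quartiles 6.34 and 10.9), 9.77 in chains of 2 to 4, 10.8 in single regions and 12.5 in promoter regions. Among distal regions the order was the same in the less strict list of each replicate. Dense against single regions had 7.96 against 10.1 in replicate 1 and 6.98 against 8.13 in replicate 2. Replicate medians were not computed for promoter regions. In 79 of 94 chains the median lay below that of all distal regions (10.3). The medians of the authors' −log10 p did not follow this order, at 49.4 in dense chains, 52.3 in chains of 2 to 4 and 48.6 in single regions. When only peaks at or above the list's median signal value were kept, the rule gave 3 chains and the difference from single regions turned to 0.413 higher. These differences were not tested.

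**Figure D4:**
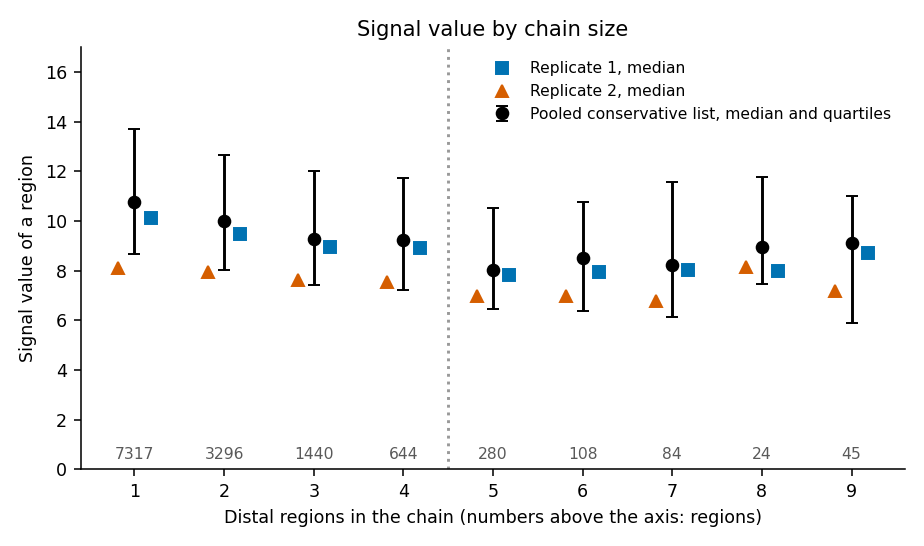
Signal value of distal regions (vertical axis) by the number of regions in their chain (horizontal axis, with the number of regions above it): circles and bars are the median and quartiles in the pooled conservative list, squares and triangles the medians in the less strict lists of replicates 1 and 2. The pooled median falls from 10.8 for single regions to 8.04 in chains of 5 and is 8.50, 8.23, 8.95 and 9.11 in chains of 6, 7, 8 and 9, right of the dotted line that marks the rule.

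Strong and weak members stood side by side within chains. The difference between the strongest and the weakest member had a median of 7.23. On the log2 scale the SD among members of a chain was 0.49 and the SD among chain means 0.33, with 0.47 and 0.32 in replicate 1 and 0.50 and 0.29 in replicate 2. These SDs are unlike measures, since a mean over several members varies less than a single member. In the 56 chains with a common nearest gene, the strongest member was the closest to its start site in 11 and the farthest in 20.

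Dense regions lay between genes somewhat more often than single ones. Their summits were intergenic in 50.1% (45.9 to 54.3), intronic in 46.0% and exonic in 3.88%, and those of single regions in 43.0% (41.9 to 44.2), 50.2% and 6.75%. In chains of 2 to 4 the intergenic share was 46.5% (45.2 to 47.9), an interval that overlapped the dense one. Relative to the nearest protein-coding gene, 45.1% were upstream, 28.8% within its body and 26.1% downstream (22.5 to 29.9), against 45.3%, 34.7% and 19.97% (19.1 to 20.9) of single regions. There were 28 chains that were wholly intergenic, such as those at Ptma and Zfp36l2, and 23 wholly intronic, such as that at Pik3ap1. In 25 chains every member was upstream of its nearest gene, in 17 every member was downstream and in 13 every member was inside the gene. The median distance to the nearest start site of a protein-coding gene was 24843 bp in dense chains and 22957 bp in single regions. In 6 chains, among them that at Amigo2, every member was over 100 kb from it.

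Of 27 strings searched within 50 bp of each summit, the one for KLF and SP factors differed most between dense and single regions. CCNCNCCC, a C-rich string also common at promoters (37.5%), was in 21.4% of dense regions (18.2 to 25.1), 15.5% of those in chains of 2 to 4 and 13.2% of single regions (12.4 to 13.955), and in 25.2% of all open regions. Dense regions were slightly richer in G and C, with a median of 53.5% against 51.5%. Distal regions were also put in 3 classes by GC content, bounded at 49.5% and 54.5%. From the lowest class to the highest, the KLF-SP share was 10.7%, 17.9% and 28.7% in dense chains and 5.14%, 10.8% and 21.9% in single regions. The dense intervals were 6.47 to 17.14, 12.54 to 24.98 and 23.57 to 34.4, and those of single regions lay below them in each class. For chains of 2 to 4 the intervals were 4.97 to 7.20, 11.41 to 14.79 and 23.32 to 27.03. Each of these overlapped the dense one, so within GC classes the excess did not separate dense chains from chains of 2 to 4. At least 1 member held the string in 67 of 94 chains, with as many as 4 such members in a chain, as at Alox5ap. The share over all distal regions was 14.4%, and the number of chains to be met at that share was not computed.

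The strings of the usual myeloid factors had overlapping intervals in dense and single regions over all GC classes together, and most were rarer at promoters. GGAAGT, which is contained in the longer PU.1 string GAGGAAGT, was in 26.2% of dense (22.7 to 30.1) and 25.9% of single regions (24.9 to 26.9), and in 19.7% of promoter regions. The longer string was in 7.21% (5.32 to 9.70) and 8.95% (8.32 to 9.63), the C/EBP string TTNCNNAA in 21.6% (18.4 to 25.3) and 20.2% (19.3 to 21.1), and the RUNX string TGTGGTT in 6.47% (4.69 to 8.86) and 5.66% (5.15 to 6.21). AP-1, the TGANTCA string, was in 8.87% (6.76 to 11.6) and 6.53% (5.99 to 7.12). The E-box CAGCTG was in 10.9% (8.55 to 13.8) and 8.31% (7.70 to 8.96). The CTCF string CCAGGNGGC was in 3.33% (2.11 to 5.198) of dense regions and 4.55% (4.10 to 5.05) of single ones. The intervals of dense and single regions overlapped for each of these 7 strings. At promoter regions the shares were 10.8% for C/EBP, 2.46% for AP-1, 1.80% for RUNX and 3.12% for the longer PU.1 string. Of these strings, 5 were also counted within each of the 3 GC classes, and among all those pairs of intervals only 2 did not overlap. AP-1 in the highest class was in 9.43% of dense regions (6.47 to 13.6) and 4.62% of single ones (3.896 to 5.46). C/EBP in the lowest class was in 41.2% (33.16 to 49.8) and 31.1% (29.3 to 33.02). In chains of 2 to 4 these shares were 5.56% (4.66 to 6.62) and 33.1% (31.0 to 35.4), and both intervals overlapped the dense ones. The intervals treat regions as separate, although regions of 1 chain share a locus. The differences between dense and single regions were not tested. GGAAGT was found in 75 chains, C/EBP in 71, AP-1 in 35 and RUNX in 32. Over all distal regions the shares were 26.5%, 20.6%, 6.74% and 5.85%. With at least 5 regions in each chain, many chains would hold a common string at those shares. The counts are therefore no result about the chains.

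**Figure D5:**
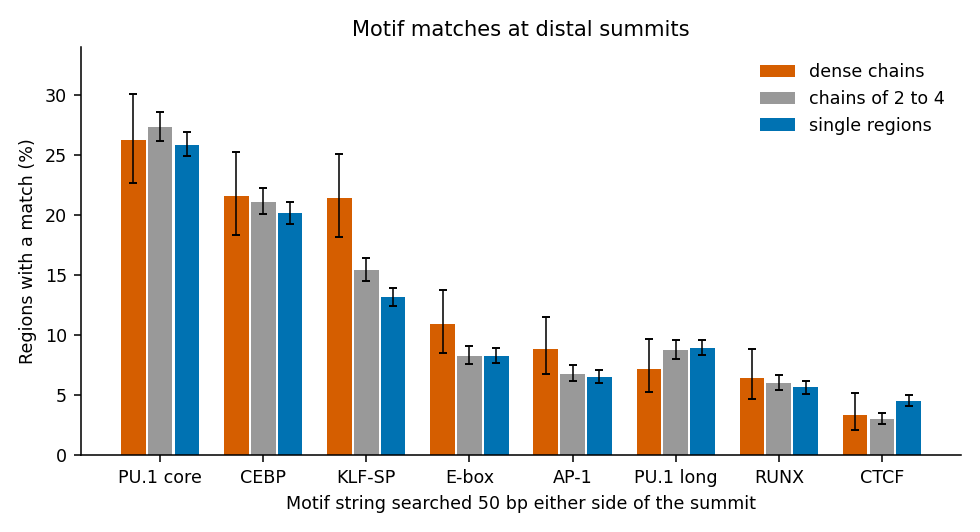
Share of distal regions (percent, vertical axis) with a match to each string within 50 bp of the summit, in dense chains, chains of 2 to 4 and single regions, with 95% Wilson intervals. The KLF-SP bars fall from 21.4% to 13.2%, while the PU.1 core and C/EBP bars are level within their intervals.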

How the data were processed

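ATAC-seq peak lists of 2 libraries of blood neutrophils, on mm10 per the labels, were used with GRCm38.p6 and GENCODE release M21. The deposited lists give each peak a signal value, a score whose definition the file headers do not state, and a −log10 p-value, which is the authors' own too; the aligner and the caller of the peaks: not given in the sources used here. Per the file headers, lists exist for each replicate (thresholded by the irreproducible discovery rate, IDR, and less strict) and for both pooled (optimal and conservative IDR). Merged regions took the summit of their highest peak, and an overlap needed 1 bp. The merging and chaining were tested on simulated data. With 1 group of 2 replicates no test between groups was possible, so shares carry 95% Wilson intervals. Of 509 genes in 22 lists, 502 matched a protein-coding symbol. The members, the lists and the motifs were chosen with earlier results of these data known. The genes named were those of the 12 chains with the most regions (ties broken by summed signal value), of the 5 with the most regions per kb, and up to 6 members of each list at a chain (4 for other lineages); all other genes in the text were named after their values were seen. Alternatives were other gaps, minimum sizes, peak lists, start-site rules, windows and gene assignments. Python 3.11.15, pandas 2.3.3, scipy 1.17.1 and pysam 0.24.0 were used. A few genes are not reported here.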

Additional observations from a re-analysis of the deposited data

How the results depend on the processing

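The number of chains depended strongly on the rule. Against 94 chains with 541 regions and a median signal value of 8.23, a gap of 5 kb gave 6 chains, 32 regions and 5.91, and a gap of 25 kb gave 326, 2018 and 9.23. At least 4 regions gave 255 chains with 1185 regions, at least 6 gave 38 with 261, the pooled optimal list 243 with 1455, and a start-site distance of 2.5 kb 61 with 341. Keeping only peaks at or above the median signal value gave 3 chains, 15 regions and 13.1. Leaving out either replicate gave 8 to 145 chains, 41 to 833 regions and medians of 8.20 to 9.43; the 8 came without replicate 1 and the 145 without replicate 2. Counting protein-coding start sites only gave 120 chains with 719 regions.

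The median signal value of dense regions minus that of single regions was −2.53. It was −4.85 at 5 kb, −1.51 at 25 kb, −1.55 with the pooled optimal list and −1.61 to −1.24 with either replicate alone, and it turned to 0.413 with peaks at or above the median. In the less strict lists the share of members found was 99.4% in replicate 1 and 92.1% in replicate 2, and 77 chains were rebuilt in replicate 2. In the thresholded list of replicate 2, a gap of 25 kb rebuilt 12 chains in place of 7. The intergenic share was 43.8% at a gap of 5 kb. A window of 100 bp on either side raised the KLF-SP share to 33.6%, and its excess over single regions stayed between 5.53 and 9.86 points under the alternatives. Of listed genes, 0.199% were at a chain at 5 kb, 11.0% at 25 kb, and 0 to 5.78% with either replicate alone. Open promoters made up 53.8% of the genes without replicate 1 and 72.9% without replicate 2. In all, 34 of 73 alternative values stayed close to the reported one, 38 moved and 1 changed sign; the cause was not tested. No paired analysis was possible because there is 1 group. Depth limits these results: read totals were not used, so a region missing from the shorter replicate 2 list cannot be called closed.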
